A study of Rattus norvegicus with 12 samples.

Results

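The 35 genes described here are lymphocyte genes: 25 are used as markers of T cells and natural killer (NK) cells, 6 of B cells and plasma cells, and 4 are expressed by most leukocytes. They were taken by gene symbol from a joined count table of 16558 genes of rat liver RNA-seq. The table lists 33 of them, which are 23 T and NK genes, all 6 B and plasma genes and all 4 leukocyte-wide genes. Cd5 and Il7r are not analysed here. Of the 33, 28 held enough counts to be tested, namely 20 T and NK genes, 5 B and plasma genes and 3 leukocyte-wide genes. The genes listed but too low to test were Cd8b, Cd28, Ltb, Ms4a1 and Cd52.

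T cells recognise antigen through a receptor whose signal passes from the CD3 and zeta chains (Cd3d, Cd3e, Cd3g, Cd247) to the kinases Lck and Zap70 and the adaptor Lat. Cytotoxic T cells and NK cells, which are common in liver, kill target cells with perforin (Prf1) and granzymes. B cells signal through a membrane antibody held by Cd79a and Cd79b, and plasma cells, their descendants, secrete antibody, with IgM and IgA polymers joined by the J chain (Jchain). Some of these genes are shared with other cells: rat macrophages express Cd4, and Ptprc (CD45), Coro1a and Cd37 are found on myeloid cells as well.

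The 12 libraries came from liver of Sprague Dawley rats, an outbred strain, in 4 groups of 3. Normal animals (libraries N.1, N.2 and N.3) were given saline, and model animals (M.5, M.6 and M2.1) were fed a high-fat diet for 8 weeks to induce fatty liver. Both remaining groups had the high-fat diet and didymin, a flavonoid glycoside of citrus fruits, at a low or a high dose. Their libraries bear the letters D (D.1, D.4, D.7) and G (G.1, G.3, G.4), which no label ties to a dose, and are called arm D and arm G. The sex and age of the animals are not given in the labels. Nothing links single libraries to single animals, so a p-value here reflects only how far libraries of a group differ, which may be technical.

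Total counts ran from 12469914 to 15521648 per library. In 2 libraries a large share of these was mitochondrial, 61.0% (G.3) and 44.1% (M.6), where the others held 3.85% to 18.8%, which left 4869054 and 7173229 nuclear counts against 10887482 to 14761817. The same 2 libraries had the lowest summed level of 12 hepatocyte genes, 51156 CPM (G.3) and 81404 CPM (M.6) compared with 160590 to 211590 elsewhere, where CPM is the count scaled to a common library size after TMM. M2.1 is named unlike the other model libraries. Counts of the lymphocyte genes were low: the T and NK genes together held 885 to 3048 counts per library, the B and plasma genes 616 to 4819 (177 to 830 without Ighm) and the leukocyte-wide genes 489 to 2217.

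To show the regulatory sequence of genes that lead the comparisons below, the 250 bases before the RefSeq start (build GRCr8) are printed for 5 of them. These are the genes among the 8 with the smallest p in an arm against the normal group whose window begins at the outer edge of the annotated gene. Each is given 5′ to 3′ on the gene's own strand, ending at the base before the start. Capitals mark exact matches on either strand to short motifs of factors active in lymphocytes: AGGAAG (ETS family), TGTGGT (RUNX family), and the E-boxes CAGGTG and CAGCTG. The windows are chr1:102981247-102981496 on the plus strand for Nkg7, chr2:191412660-191412909 on the minus strand for Cd2, chr5:147201268-147201517 on the minus strand for Lck, chr20:29788790-29789039 on the plus strand for Prf1 and chr14:19822726-19822975 on the plus strand for Jchain.
Nkg7: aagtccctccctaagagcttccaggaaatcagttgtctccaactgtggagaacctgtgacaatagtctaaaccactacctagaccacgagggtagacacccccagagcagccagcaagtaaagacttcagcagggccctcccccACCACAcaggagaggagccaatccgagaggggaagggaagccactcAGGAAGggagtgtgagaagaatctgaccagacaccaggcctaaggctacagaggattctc
Cd2: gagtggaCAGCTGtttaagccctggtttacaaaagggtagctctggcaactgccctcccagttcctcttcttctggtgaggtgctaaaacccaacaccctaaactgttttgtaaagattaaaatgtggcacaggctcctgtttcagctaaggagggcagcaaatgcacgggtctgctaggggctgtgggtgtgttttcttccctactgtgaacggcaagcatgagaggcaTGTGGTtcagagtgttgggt
Lck: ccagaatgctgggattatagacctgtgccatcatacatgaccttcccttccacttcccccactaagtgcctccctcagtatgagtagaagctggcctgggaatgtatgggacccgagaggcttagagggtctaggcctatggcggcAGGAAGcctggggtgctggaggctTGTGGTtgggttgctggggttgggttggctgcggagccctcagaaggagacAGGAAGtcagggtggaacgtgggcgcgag
Prf1: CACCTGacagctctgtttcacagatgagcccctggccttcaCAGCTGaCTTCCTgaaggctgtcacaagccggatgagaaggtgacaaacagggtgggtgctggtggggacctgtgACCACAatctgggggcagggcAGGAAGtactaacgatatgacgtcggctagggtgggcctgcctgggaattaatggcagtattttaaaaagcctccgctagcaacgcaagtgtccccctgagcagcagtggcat
Jchain: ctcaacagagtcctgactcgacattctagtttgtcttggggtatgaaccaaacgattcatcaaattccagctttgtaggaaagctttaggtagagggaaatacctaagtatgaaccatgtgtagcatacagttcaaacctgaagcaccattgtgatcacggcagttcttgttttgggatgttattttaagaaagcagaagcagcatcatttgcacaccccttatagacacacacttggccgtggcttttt

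Prf1 held matches to all 4 motifs, with ETS matches beginning 202 and 113 bases before the start and the RUNX match 134 bases before it. Lck held ETS matches at 104 and 29 bases and a RUNX match at 80 bases before the start. In Nkg7 the ETS match lay 60 and the RUNX match 106 bases before the start, and in Cd2 the RUNX match lay 20 and the CAGCTG match 243 bases before it. The Jchain window, a promoter active in plasma cells, held none of these, nor the octamer ATTTGCAT or the TATA box letters TATAAA. RefSeq windows were found for 26 of the 35 genes (27 windows, as Lck has 2). AGGAAG was in 17 of the 27, against 29.5% of all 33469 windows of the same length. TGTGGT was in 10 of the 27 against 14.5% of all, CAGGTG in 10 against 15.9%, CAGCTG in 5 against 11.97%, ATTTGCAT in 0 against 1.56% and TATAAA in 2 against 12.9%. CAGGTG and CAGCTG are counted apart, and a match is a description of the letters only.

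The CD3 and zeta chains, the signalling part of the T cell receptor, held few counts in every library. Cd3g stood at 0.51, 0.12 and 0.67 CPM in N.1, N.2 and N.3. In M.5, M.6 and M2.1 it stood at 3.08, 1.71 and 0.38 CPM, in D.1, D.4 and D.7 at 1.49, 0.98 and 1.09, and in G.1, G.3 and G.4 at 0.83, 8.05 and 1.87. All 6 didymin libraries thus lay above the normal ones, M2.1 lay among the normal ones, and G.3 was far above every other library. Cd247, the zeta chain, stood at 0.96, 0.60 and 2.01 CPM in the normal libraries, at 1.38, 0 and 0.49 in M.5, M.6 and M2.1, at 1.56, 1.72 and 2.36 in arm D and at 1.60, 2.95 and 1.73 in arm G. Each arm lay above every model library and overlapped the normal group, and the 0 in M.6 allows up to 0.27 CPM (3 counts). In these liver extracts, fewer cells of a type and less RNA per cell cannot be told apart. Cd3d, the delta chain, averaged 0.31 ± 0.21 CPM (SD, n = 3) in normal, 0.43 ± 0.15 in model, 0.83 ± 0.27 in arm D and 0.90 ± 0.23 in arm G, with both arms above every normal and every model library. Cd3e, the epsilon chain, averaged 0.56 ± 0.23, 0.60 ± 0.32, 1.23 ± 0.68 and 1.74 ± 0.74 CPM in the same order.

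Among the surface receptors, the co-receptors Cd4 and Cd8a differed in pattern. Cd4 stood at 25.7, 23.7 and 13.9 CPM in the normal libraries, at 7.37, 6.30 and 12.9 in M.5, M.6 and M2.1, at 9.72, 48.6 and 31.8 in D.1, D.4 and D.7, and at 20.5, 3.86 and 18.1 in G.1, G.3 and G.4. It was the one tested gene of the 28 in which every model library lay below every normal library, and within each arm 1 library (D.1 and G.3) lay far below the other 2. Cd8a, a co-receptor chain found on cytotoxic T cells but not only there, stood at 2.69, 3.24 and 5.67 CPM in normal, at 5.35, 7.74 and 2.11 in M.5, M.6 and M2.1, at 8.66, 5.22 and 5.33 in arm D and at 4.02, 8.17 and 5.89 in arm G, so that all groups overlapped the normal group. The summed level of 14 Kupffer cell (liver macrophage) genes was 766 to 1000 CPM in the normal libraries, 894, 465 and 550 in M.5, M.6 and M2.1, 784, 2159 and 1494 in D.1, D.4 and D.7, and 1033, 555 and 1050 in G.1, G.3 and G.4. D.4 and D.7 were thus highest in both Cd4 and the Kupffer genes, and G.3 and M.6 were lowest in Cd4 and low in the Kupffer genes. Other libraries differed: M.5 and D.1 lay in the normal range of the Kupffer sum but below every normal library in Cd4. M2.1 and G.3 had similar Kupffer sums (550 and 555) but Cd4 at 12.9 and 3.86 CPM. The part of macrophages in the Cd4 values was not tested. Cd2, an adhesion receptor of T and NK cells, averaged 0.76 ± 0.23, 1.996 ± 1.40, 1.29 ± 0.31 and 2.70 ± 1.55 CPM in normal, model, arm D and arm G. Cd6 and Cd27, co-stimulatory receptors, were highest in G.3 at 5.78 and 3.40 CPM, where no other library passed 1.82 and 1.32. Cd8b held 0 to 25 counts per library and Cd28 0 to 9, too few to compare.

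Lck, the kinase that starts T cell receptor signalling, varied little within the normal group. It stood at 4.03, 3.004 and 3.36 CPM there, at 4.86, 6.12 and 3.58 in M.5, M.6 and M2.1, at 4.47, 5.05 and 7.87 in arm D, and at 4.34, 9.30 and 8.66 in arm G. Every didymin library lay above every normal library, and M2.1 lay among the normal ones. Lat, the adaptor downstream of Zap70, stood at 1.22, 1.44 and 0.89 CPM in normal, at 2.51, 5.58 and 1.19 in M.5, M.6 and M2.1, at 2.48, 3.33 and 2.97 in arm D and at 1.66, 15.8 and 4.43 in arm G. Here too all 6 didymin libraries exceeded the normal ones, and G.3 stood apart at the top. Zap70, the kinase recruited to the zeta chain, averaged 0.77 ± 0.60 CPM in normal, 2.58 ± 1.70 in model, 2.69 ± 0.81 in arm D and 3.08 ± 2.16 in arm G.

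The 8 cytotoxic and NK genes had their highest summed level in arm D, 79.5 ± 21.0 CPM (SD, n = 3) against 31.8 ± 16.4 in normal, 55.3 ± 27.3 in model and 58.9 ± 18.1 in arm G. Ccl5, a chemokine that T and NK cells release, stood at 5.06, 5.89 and 16.9 CPM in normal, at 24.5, 18.7 and 6.89 in M.5, M.6 and M2.1, at 30.1, 35.9 and 17.7 in arm D and at 13.4, 17.6 and 26.7 in arm G. Arm D lay wholly above the normal group, the lowest of it narrowly so, while model and arm G overlapped N.3. Prf1, the pore-forming perforin, stood at 4.10, 6.55 and 7.68 CPM in normal, at 13.0, 8.82 and 5.91 in M.5, M.6 and M2.1, at 11.3, 27.8 and 13.4 in arm D and at 7.73, 12.02 and 13.996 in arm G. All 6 didymin libraries exceeded all 3 normal libraries, G.1 by a narrow margin. Nkg7, a protein of cytotoxic granules, averaged 2.19 ± 1.59, 3.79 ± 1.98, 6.30 ± 0.51 and 4.85 ± 1.69 CPM in normal, model, arm D and arm G. Gzmk, a granzyme, averaged 2.09 ± 0.95, 2.55 ± 1.44, 4.48 ± 0.77 and 3.58 ± 0.80 CPM. Gzma, another granzyme, had its highest mean in the model group, 8.69 ± 5.77 CPM against 3.62 ± 1.89 in normal, with M2.1 at 2.28 beside 13.4 and 10.3 in M.5 and M.6. Gzmb was under 1.4 CPM in every library and had no direction shared by the high-fat groups; rat granzyme B has close copies among which reads may be split. Klrd1 (CD94, an NK receptor) and Il2rb (a chain of the receptor for interleukin 2 and 15) averaged 1.34 ± 0.65 and 6.56 ± 2.79 CPM in normal, and 2.26 to 3.07 and 10.9 to 11.8 CPM over the means of the 3 high-fat groups. Ltb, a lymphotoxin chain, held at most 2 counts in any library.

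Levels of the B cell receptor genes varied mainly with single libraries. Cd22, an inhibitory B cell receptor, stood at 5.76, 5.95 and 5.07 CPM in normal, at 5.83, 5.67 and 4.34 in M.5, M.6 and M2.1, at 3.62, 15.9 and 8.53 in arm D and at 5.68, 9.07 and 5.13 in arm G. Only D.4, G.3 and D.7 stood above the other libraries. Cd79b stood at 1.41, 0.36 and 2.76 CPM in normal, at 2.67, 3.15 and 0.65 in M.5, M.6 and M2.1, at 2.27, 1.32 and 3.21 in arm D, and at 2.55, 8.17 and 2.08 in arm G. Apart from G.3 every group spanned a similar range. Cd79a averaged 1.21 ± 0.70, 1.54 ± 1.24, 1.10 ± 0.22 and 2.08 ± 1.24 CPM in normal, model, arm D and arm G. Ms4a1 (CD20) held 0 to 12 counts per library.

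Ighm, the constant region of the IgM heavy chain, had the smallest p of the 28 genes in each contrast with the normal group. It stood at 68.0, 26.4 and 38.4 CPM in N.1, N.2 and N.3, at 256, 193 and 35.5 in M.5, M.6 and M2.1, at 239, 229 and 169 in D.1, D.4 and D.7, and at 230, 230 and 226 in G.1, G.3 and G.4. Every library of the high-fat groups except M2.1 was at 169 CPM or more, and M2.1 lay among the normal libraries. Group means were 44.3 ± 21.4 CPM in normal, 162 ± 114 in model, 212 ± 37.5 in arm D and 229 ± 2.66 in arm G (SD, n = 3). Reads shared with other immunoglobulin genes could be split or assigned here, since the counting is not given in the sources used. Jchain stood at 12.5, 3.43 and 3.36 CPM in normal, at 21.5, 8.996 and 6.94 in M.5, M.6 and M2.1, at 27.5, 29.0 and 27.7 in arm D and at 29.9, 6.58 and 33.3 in arm G. Arm D spanned a narrow range above the normal group, and in arm G the library G.3 lay in the normal range while G.1 and G.4 lay above every other library. Without Ighm, the other B and plasma genes summed to 15.1 ± 5.29 CPM in normal, 21.7 ± 8.89 in model, 41.3 ± 6.18 in arm D and 36.9 ± 7.91 in arm G.

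Among the leukocyte-wide genes, Ptprc (CD45), a phosphatase on all nucleated blood cells, stood at 13.5, 14.0 and 13.9 CPM in normal, at 18.7, 26.7 and 17.1 in M.5, M.6 and M2.1, at 14.5, 41.4 and 40.1 in arm D and at 18.3, 53.0 and 23.9 in arm G. It was the 1 tested gene of the 28 in which all 9 high-fat libraries exceeded all 3 normal libraries, which held for 0.809% of all tested genes, and D.1 cleared the normal group narrowly. Coro1a, an actin regulator of leukocytes, stood at 13.8, 12.02 and 21.999 CPM in normal, at 43.0, 32.2 and 11.1 in M.5, M.6 and M2.1, at 29.7, 66.3 and 45.3 in arm D and at 19.9, 63.9 and 34.0 in arm G. Arm D lay above the normal group, and G.1 lay within it and M2.1 below it. Cd37, a tetraspanin of B cells and other leukocytes, averaged 4.17 ± 0.43, 6.49 ± 3.37, 10.8 ± 6.81 and 11.0 ± 4.52 CPM. Cd52, a small surface glycoprotein, held 1 to 25 counts per library, with 20 and 25 in D.4 and G.3 and at most 8 elsewhere.

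**Figure D1:**
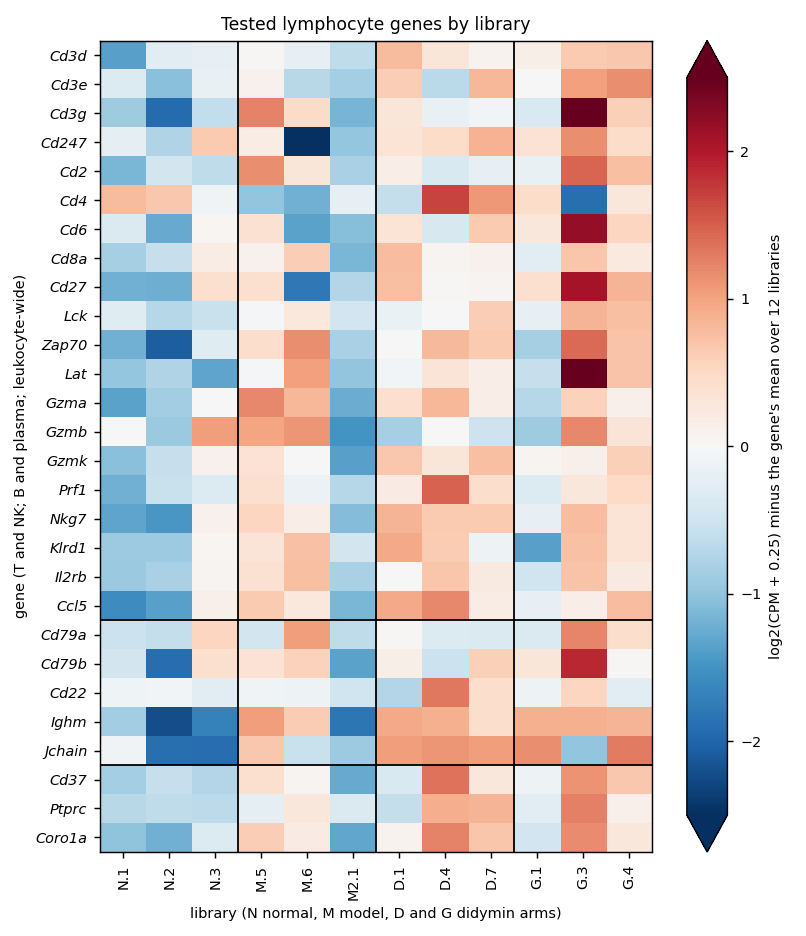
Each tile is one tested gene in 1 library, as log2(CPM + 0.25) minus the gene's mean over the 12 libraries, with red above and blue below that mean and lines between the classes of genes (rows) and the groups (columns). N.1, N.2 and M2.1 are mostly blue. N.3 holds both colours, with red tiles in genes such as Cd247, Gzmb and Cd79a. G.3 holds the darkest red tiles (Cd3g, Lat, Cd6, Cd27) together with the dark blue Cd4.

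**Figure D2:**
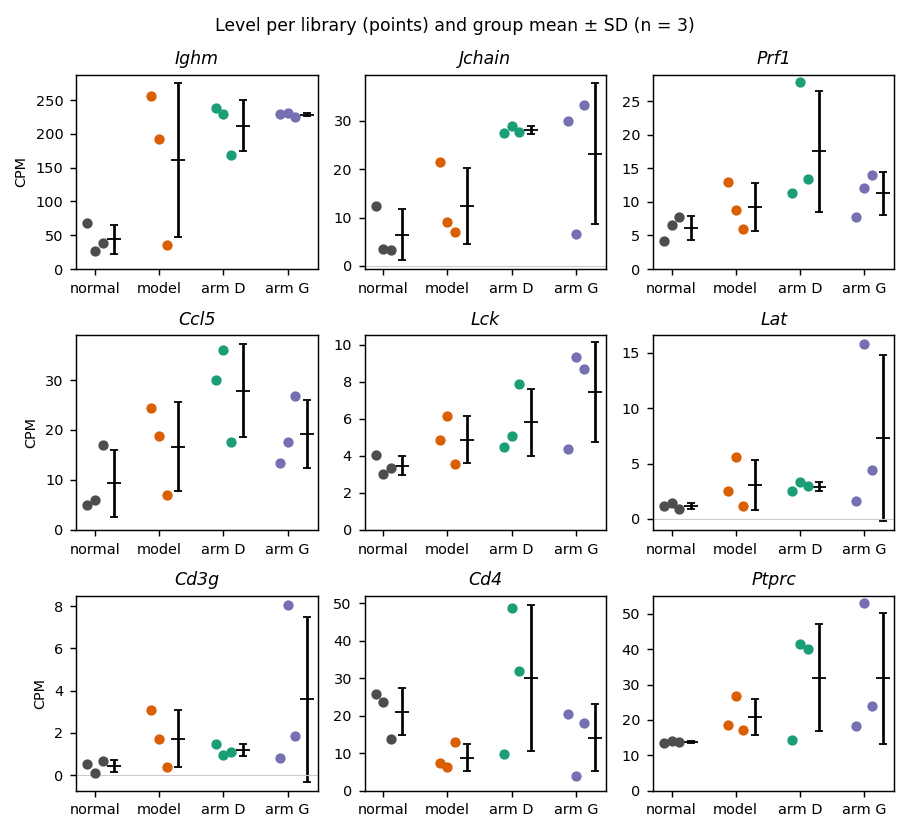
Level in CPM (y axis, linear scale) of 9 genes in each library (points) with the group mean and SD (bars, n = 3) for the normal, model, arm D and arm G groups. The 3 arm G libraries of Ighm nearly coincide at 226 to 230 CPM, whereas for Lat and Cd3g in arm G the point of G.3, at 15.8 and 8.05 CPM, lies far above the other two.

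By library, 22 of the 28 tested lymphocyte genes had their lowest level in the normal group or in M2.1: 7 in N.1, 7 in N.2, 2 in N.3 and 6 in M2.1. Another 3 were lowest in M.6 and 1 each in D.1, G.1 and G.3. None had its highest level in a normal library, in M2.1 or in G.1. The highest level was in G.3 for 12 genes, in D.4 for 6, in D.1 for 4, in M.5 and G.4 for 2 each and in M.6 and D.7 for 1 each. The lowest of the 4 group means was in the normal group for 22 of the 28, against 28.5% of all tested genes. The highest mean was in arm G for 14, in arm D for 12 and in the model for 2 (Gzma and Gzmb). The shares of all tested genes by highest or lowest library, and by highest group mean, were not recorded. Those counts therefore cannot be read as particular to the lymphocyte genes.

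Summed over genes, the T and NK level was 58.1, 59.6 and 82.7 CPM in normal, 111, 100 and 48.0 in M.5, M.6 and M2.1, 112, 175 and 124 in arm D, and 77.3, 138 and 124 in arm G. All of arm D and 2 of 3 libraries of arm G lay above the normal group. Without Cd4 this sum was 32.3, 35.9 and 68.8 CPM in normal and 104, 93.9 and 35.1 in M.5, M.6 and M2.1. It was then 103, 126 and 91.7 CPM in arm D and 56.8, 134 and 106 in arm G, with G.3 in place of D.4 as the highest library. For the B and plasma genes the sum was 88.9, 37.0 and 52.1 CPM in normal, 287, 214 and 48.6 in the model libraries in the same order, 274, 276 and 210 in arm D and 269, 259 and 269 in arm G. Ighm made up most of this sum in every library. The summed leukocyte-wide level was 31.3, 30.9 and 40.3 CPM in normal, 71.3, 66.8 and 31.1 in model, 49.9, 127 and 94.5 in arm D and 44.8, 135 and 69.3 in arm G.

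Markers of other cells also differed between these libraries. The summed level of 6 erythroid genes, among them alpha and beta globin, ranged from 140 to 438 CPM in normal, from 243 to 1262 in model (M.6 highest), from 366 to 1277 in arm D (D.1 highest) and from 529 to 1472 in arm G (G.3 highest). The 6 platelet genes summed to 103 CPM in G.3 and to at most 36.5 in any other library. The 10 monocyte and dendritic cell genes summed to 95.6 CPM in D.4 and to 17.9 to 46.2 elsewhere, with 17.9 to 25.4 in normal and 24.5 and 40.2 in D.1 and D.7. The listed neutrophil genes summed to 6.08 to 8.95 CPM in normal, 9.64, 37.3 and 1.68 in M.5, M.6 and M2.1, 9.44 to 11.6 in arm D and 10.5, 40.7 and 21.1 in G.1, G.3 and G.4. None of the listed marker genes of these types was at 0 in all libraries. The part of blood, myeloid cells or hepatocyte RNA in the lymphocyte values was not tested.

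**Figure D3:**
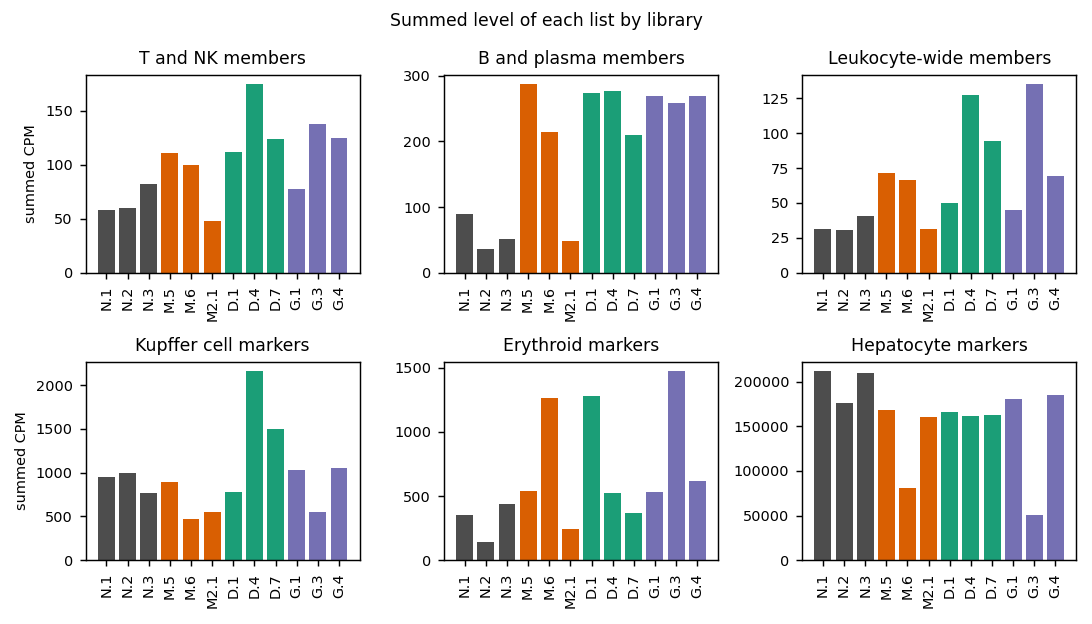
Summed CPM (bars, from 0) in each of the 12 libraries for the T and NK, B and plasma and leukocyte-wide genes (top) and for Kupffer cell, erythroid and hepatocyte marker genes (bottom). B and plasma bars, which are mostly Ighm, are 210 CPM or more in every high-fat library except M2.1, and the hepatocyte bars are shortest in G.3 and M.6.

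The high-fat diet itself was addressed by model against normal. Counts were compared with edgeR's quasi-likelihood test over 12355 genes, and no gene, lymphocyte or other, passed an adjusted p of 0.05 in any of the 6 pairwise comparisons (0% called in each). At an unadjusted p under 0.05 the numbers of genes were 607 (4.91%) for model against normal, 776 (6.28%) and 287 (2.32%) for arms D and G against model, 783 (6.34%) and 814 (6.59%) for arms D and G against normal, and 423 (3.42%) for arm G against arm D. In model minus normal, 24 of the 28 lymphocyte genes had a positive log2 fold change against 52.6% of all tested genes, with medians of 0.54 for the 20 T and NK, 0.51 for the 5 B and plasma and 0.63 for the 3 leukocyte-wide genes against 0.03 for all genes. Of the 28, 2 were higher at an unadjusted p under 0.05, against 3.01% of all genes: Ighm with 1.87 ± 0.56 (SE; adjusted p = 0.809) and Zap70 with 1.75 ± 0.77 (adjusted p = 0.866). The next by p were Cd2 at 1.36 ± 0.64, Gzma at 1.26 ± 0.59, Cd3g at 1.97 ± 0.94, Cd4 at -1.25 ± 0.62, Lat at 1.36 ± 0.74 and Il2rb at 0.74 ± 0.45, all with an edgeR adjusted p of 0.866. The groups did not overlap for 1 gene upward (Ptprc; 5.25% of all genes) and 1 downward (Cd4; 5.29%). The count of 2 was 10 (of 30 tested, against 8.98% of all genes) without M2.1. It was 6 without N.3 (3.56% of all genes) or G.1 (3.26%) and 5 without G.3 (6.29%). It was 1 without N.2, M.5, M.6, D.4, D.7 or G.4 (1.35% to 2.98%). With DESeq2, 5 of the 28 were higher at an unadjusted p under 0.05, against 4.08% of all genes, and 1 was lower. With voom and quality weights 11 were higher, against 14.3% of all genes, and 1 was lower, with a median of 0.99. The share of all genes lower was not recorded for these tools. A gene can pass the filter on low counts through the group where it is high, so counts and medians over the 28 and over the marker lists are descriptions.

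Arm D stood above the normal group in most of these genes. In arm D minus normal, 26 of the 28 were positive against 48.2% of all tested genes, with medians of 1.14 for T and NK, 0.74 for B and plasma and 1.37 for leukocyte-wide genes against -0.01 for all genes. At an unadjusted p under 0.05, 10 were higher and 0 lower, against 4.22% and 2.12% of all genes: 5 T and NK, 2 B and plasma and 3 leukocyte-wide. The smallest p-values were those of Ighm at 2.26 ± 0.57 (adjusted p = 0.378), Prf1 at 1.52 ± 0.42 (adjusted p = 0.443) and Jchain at 2.12 ± 0.65 (adjusted p = 0.497). Coro1a followed at 1.56 ± 0.52, Ccl5 at 1.59 ± 0.54, Nkg7 at 1.53 ± 0.54, Ptprc at 1.21 ± 0.44 and Cd37 at 1.37 ± 0.52, with edgeR adjusted p from 0.565 to 0.647. All 3 libraries of arm D exceeded all 3 normal libraries for 16 of the 28, against 8.58% of all genes. In the same contrast all 7 tested monocyte and dendritic cell genes were positive with a median of 1.70, above that of the T and NK genes, and 6 were higher at an unadjusted p under 0.05. All 14 Kupffer cell genes were positive with a median of 0.80, and all 6 erythroid genes with a median of 1.13. The part of these cells in the arm D values was not tested. The count of 10 was 5 without N.1 (against 2.64% of all genes), 6 without N.2 (2.42%), 7 without D.7 (2.97%) and 14 without N.3 (4.20%). The log2 fold change of Prf1 was 1.01 without D.4. Other tools called some of these genes at an adjusted p of 0.05. DESeq2 called Ighm (2.26, adjusted p = 0.0137) among 84 genes called in all. Limma-voom with quality weights called 12 among 941 genes called in all. These 12 were Ccl5, Cd37, Coro1a, Gzma, Gzmk, Ighm, Il2rb, Jchain, Nkg7, Prf1, Ptprc and Zap70.

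Arm G was led by T cell receptor and signalling genes beside Ighm. In arm G minus normal, 27 of the 28 were positive against 51.2% of all tested genes, with medians of 1.07 for T and NK, 1.49 for B and plasma and 1.30 for leukocyte-wide genes against 0.01 for all genes. At an unadjusted p under 0.05, 14 were higher and 0 lower, against 4.42% and 2.17% of all genes: 9 T and NK, 2 B and plasma and 3 leukocyte-wide. Ighm had 2.37 ± 0.57 (adjusted p = 0.475), Lat 2.59 ± 0.75 (adjusted p = 0.723) and Cd3g 3.02 ± 0.95 (adjusted p = 0.723). Lck had 1.10 ± 0.38, Jchain 1.86 ± 0.65, Cd2 1.79 ± 0.64, Ptprc 1.20 ± 0.44 and Cd37 1.39 ± 0.52, all with an edgeR adjusted p of 0.723. The groups did not overlap, with arm G higher, for 11 of the 28 against 5.51% of all genes. Markers of other blood cells also had positive log2 fold changes: all 4 tested neutrophil genes were positive with a median of 1.90 (3 not overlapping with the normal group), all 6 erythroid genes with a median of 1.35 and all 3 platelet genes with a median of 1.85. Their part in the arm G values was not tested. The count of 14 depended on G.3: without it 4 of 29 were higher at an unadjusted p under 0.05 against 1.73% of all genes, with 26 of 29 positive and a median of 0.88, and without both M.6 and G.3 it was 5 against 2.18%. It was also 6 without N.1 (against 1.81% of all genes) and 7 without N.2 (1.85%). Without G.3 the log2 fold changes of Lat and Cd3g were 1.36 and 1.65, while that of Ighm was 2.38 and that of Jchain 2.31. DESeq2 called Ighm (2.36, adjusted p = 0.0109) among 51 genes called in all. Limma-voom with quality weights called Ighm (2.65, adjusted p = 0.0163) and Jchain (2.56, adjusted p = 0.0279) among 47 genes called in all. In the other 4 comparisons neither tool called any of the lymphocyte genes.

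**Figure D4:**
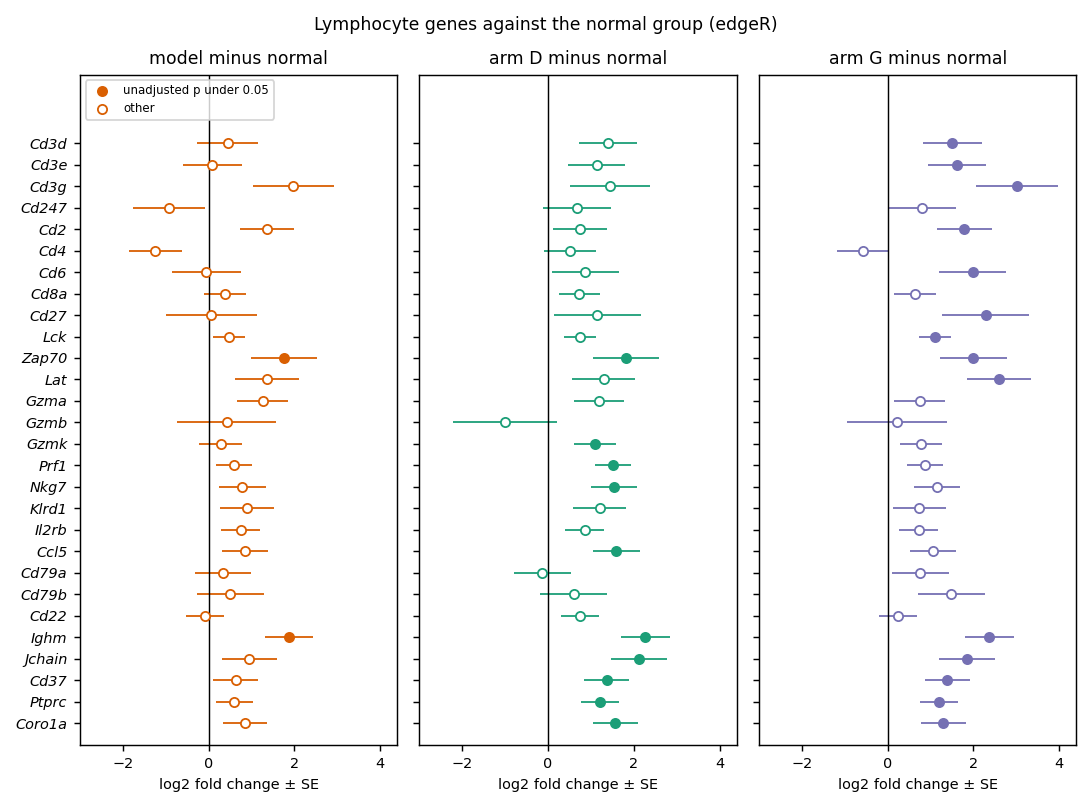
Log2 fold change with its SE (x axis; edgeR, 3 libraries a group) of each tested lymphocyte gene in the model, arm D and arm G minus the normal group, with filled points for an unadjusted p under 0.05. Filled points number 2, 10 and 14, and none passed an adjusted p of 0.05; all 3 panels share the normal libraries.

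Whether didymin changed these genes under the high-fat diet was addressed by each arm against the model. The 2 contrasts share the model libraries, and the contrasts above share the normal libraries. In arm D minus model, 22 of the 28 were positive against 46.7% of all tested genes, with medians of 0.54 for T and NK and 0.39 for B and plasma genes against -0.04 for all genes. At an unadjusted p under 0.05, 2 were higher against 3.04% of all genes: Cd4 at 1.76 ± 0.63 (adjusted p = 0.783) and Prf1 at 0.93 ± 0.42 (adjusted p = 0.788). Next came Cd247 at 1.58 ± 0.83, Cd22 at 0.83 ± 0.45, Jchain at 1.17 ± 0.63, Gzmk at 0.82 ± 0.49, Cd3e at 1.04 ± 0.66 and Cd37 at 0.74 ± 0.51, with edgeR adjusted p from 0.801 to 0.826. Arm D lay wholly above the model for Cd247, Cd3d, Jchain and Nkg7, which are 4 of 28 against 5.93% of all genes. The number higher at an unadjusted p under 0.05 was 6 without M.5, against 3.09% of all genes. It was 4 without D.1 (3.89%) or G.3 (5.26%). It was 1 without N.2 (2.59%), M2.1 (7.39%) or D.4 (1.26%), and 0 without M.6 (1.85%). In the same contrast all 14 Kupffer cell genes were positive with a median of 1.40, and 12 were higher at an unadjusted p under 0.05.

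In arm G minus model, 24 of the 28 were positive against 50% of all tested genes, with medians of 0.47 for T and NK and 0.50 for B and plasma genes against 0.00 for all genes. At an unadjusted p under 0.05, 3 were higher against 1.20% of all genes: Cd6 at 2.04 ± 0.79, Cd3e at 1.53 ± 0.67 and Cd27 at 2.22 ± 1.01, each with an adjusted p of 0.9997. The others of the first 8 were Cd247 at 1.72 ± 0.84, Lat at 1.23 ± 0.71, Lck at 0.62 ± 0.37, Cd3d at 1.07 ± 0.67 and Cd37 at 0.77 ± 0.52. With voom and quality weights 15 of the 28 were positive, with a median of 0.06 and 0 higher at an unadjusted p under 0.05 against 6.03% of all genes. Without G.3, 19 of 29 were positive with a median of 0.14, and the T and NK median was 0.10 without M2.1. The edgeR count of 3 was 6 without G.1 (against 1.72% of all genes) and 5 without M.5 (1.15%). It was 1 without N.1 (0.966%), M.6 (1.5%), D.1 (1.23%) or G.3 (2.76%) and 0 without M2.1 (4.29%). The log2 fold change of Lat was 0.01 without G.3. Cd247, Cd27 and Cd3d did not overlap between the groups, 3 of 28 against 2.61% of all genes. Ighm differed little from the model in either arm relative to its error, at 0.39 ± 0.54 in arm D and 0.50 ± 0.54 in arm G.

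The authors' deposited tables, which test each arm and the normal group against the model, hold all 33 listed genes and call none of them. Their lowest adjusted p among these genes was 0.229 for Cd4 in the table for letter D, 0.9999 in the table for letter G and 0.292 for Ighm in the table for the normal group. Over all genes the authors' deposited tables call 7, 1 and 53.

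Between the arms, 15 of the 28 had a positive log2 fold change (arm G minus arm D) against 49% of all tested genes, with a median of 0.07 against -0.01 for all genes and 0 at an unadjusted p under 0.05 in either direction, against 3.42% of all genes (2.45% higher). This even split moved both ways with the setting. Without G.1, 20 of 30 were positive, with a median of 0.27 and 3 higher at an unadjusted p under 0.05, against 5.92% of all genes. Without G.3, 13 of 29 were positive, with a median of -0.26, and without D.1, 2 were lower. With voom and quality weights 10 of the 28 were positive, with a median of -0.20 and 5 lower. In the main fit 120 of all 12355 genes were lower. The share of all genes lower was not recorded for the fits without D.1 and with voom. The first by p were Lat at 1.30 ± 0.71, Cd3g at 1.57 ± 0.87, Cd4 at -1.08 ± 0.61 and Cd2 at 1.04 ± 0.62. After these came Prf1 at -0.64 ± 0.41, Cd6 at 1.12 ± 0.75, Cd79a at 0.90 ± 0.66 and Cd27 at 1.14 ± 0.95, and the adjusted p was 0.999 for all 8. Without G.3 the differences for Lat and Cd3g were 0.04 and 0.17. A difference between the arms of the size of these errors was not detectable with 3 libraries each.

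The make-up of a library can also be read as the share of one gene in the summed counts of related genes, which does not depend on how libraries are scaled and lets gene length cancel between libraries. Of the Cd3d, Cd3e and Cd3g counts, Cd3g took 72.4% in G.3 (71 of 98; exact 95% binomial interval 62.5% to 81.0%), 66.7% in M.5 and 65.5% in M.6. The other 9 libraries ranged from 14.3% to 44.7%. Of the Lck, Zap70 and Lat counts, Lat took 52.1% in G.3 (139 of 267; interval 45.9% to 58.2%) and 15.8% to 34.8% in the others. G.3 was also the highest library for Cd247, Lck and Zap70. The Lat share there lay above that of every other library, while the Cd3g shares of M.5 and M.6 lay within the G.3 interval.

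Jchain took 2.78% of the summed Ighm and Jchain counts in G.3 (58 of 2090; interval 2.11% to 3.57%) and 4.46% in M.6 (3.64% to 5.39%), against 7.73% to 16.3% in the other libraries. Ighm itself was at the level of G.1 and G.4 in G.3. Cd4 took 32.1% of the Cd4 and Cd8a counts in G.3 (34 of 106; interval 23.3% to 41.8%), 44.9% in M.6, 52.9% in D.1 and 58.0% in M.5, and 71.0% to 90.5% in the others. These 4 libraries also had the highest mitochondrial shares, at 61.0%, 44.1%, 16.02% and 18.8%, and the part of RNA quality in the shares was not tested. Gzma took 73.1% of the Gzma and Gzmk counts in G.3, below M.6 (78.2%), M.5 (77.9%) and D.4 (74.2%). Cd79b took 70.6% of the Cd79a and Cd79b counts in G.3, below D.7 (76.8%), M.5 (75.0%) and G.1 (72.7%). For Gzma and Cd79b G.3 was thus neither the highest nor the lowest library. The intervals cover counting error only.

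**Figure D5:**
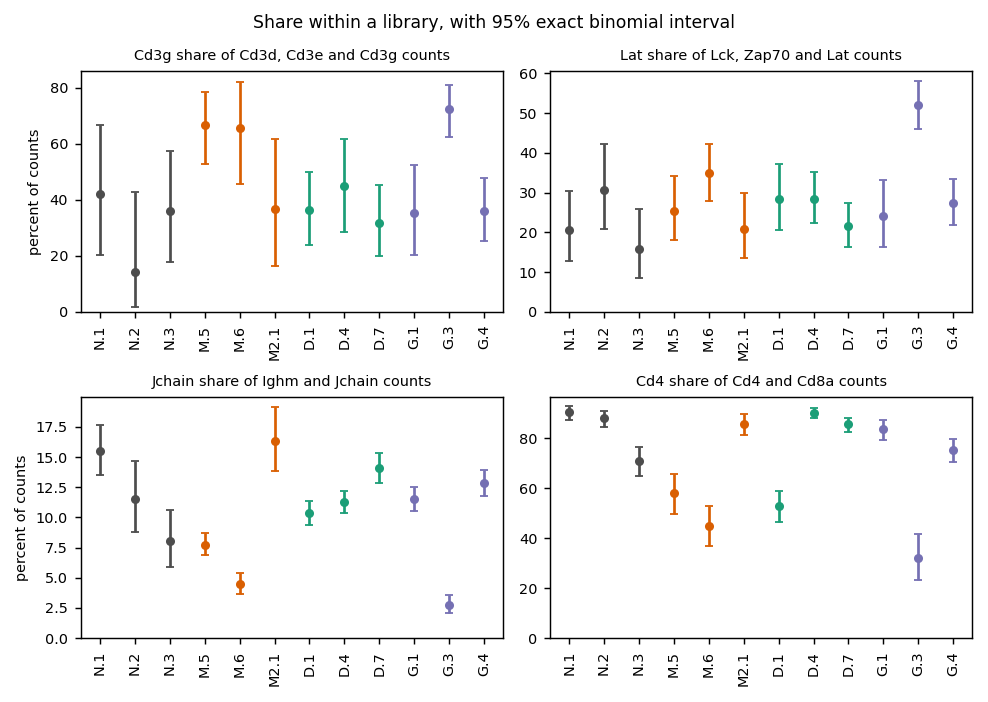
Share of counts (points, percent, y axis from 0) with the exact 95% binomial interval in each library for Cd3g among 3 CD3 genes, Lat among 3 signalling genes, Jchain beside Ighm and Cd4 beside Cd8a. G.3 is highest in the upper panels (72.4% and 52.1%) and lowest in the lower ones (2.78% and 32.1%). The shares of Gzma beside Gzmk and Cd79b beside Cd79a, where G.3 is neither highest nor lowest, are not drawn.

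Other genes of the same cells, taken from lists of known markers, were read beside these values. Of 41 further T and NK genes, 20 were tested. Counts and medians over these and the lists below are descriptions, since a gene can pass the filter through the group where it is high. Genes too low to test went both ways. Foxp3 stood at 0.51, 0.42 and 0.22 CPM in normal, 0, 0.06 and 0.12 in arm D and 0.06, 0 and 0.28 in arm G. Eomes stood at 0.19, 0.18 and 0.15 CPM in normal, 0.28, 0.46 and 0.67 in arm D and 0.45, 0 and 0.55 in arm G. All 20 were positive in arm D and all 20 in arm G minus normal, against 48.2% and 51.2% of all tested genes, with medians of 1.17 and 1.02. Of these, 8 and 6 were higher at an unadjusted p under 0.05, against 4.22% and 4.42% of all genes. Gzmm, a granzyme of NK cells, had 2.01 ± 0.51 in arm D (adjusted p = 0.382) and 1.88 ± 0.51 in arm G (adjusted p = 0.706) minus normal. It stood at 1.47, 1.14 and 2.98 CPM in normal, at 6.64, 4.95 and 1.52 in M.5, M.6 and M2.1 and at 5.24 to 8.35 in the 6 didymin libraries, none of which overlapped the normal group. Klrk1 (NKG2D, an activating NK receptor) had 1.80 ± 0.48 in arm D (adjusted p = 0.411) and 1.36 ± 0.48 in arm G (adjusted p = 0.723). Bcl11b, a transcription factor of T cells, had 2.55 ± 0.65 in arm G (adjusted p = 0.563). In model minus normal 18 of the 20 were positive (median 0.54) and 1 was higher at an unadjusted p under 0.05, against 52.6% and 3.01% of all genes, and in arm G minus arm D 10 were positive.

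Of 29 further B and plasma genes, 17 were tested. In arm D and arm G minus normal 15 and 14 were positive, against 48.2% and 51.2% of all tested genes (medians 0.94 and 1.15). At an unadjusted p under 0.05, 2 and 4 were higher, against 4.22% and 4.42% of all genes, and in arm G 1 was lower, against 2.17%. Btk, the kinase of B cell receptor signalling that myeloid cells also use, had 2.03 ± 0.45 in arm D (adjusted p = 0.342) and 1.43 ± 0.45 in arm G (adjusted p = 0.723). Mzb1, a chaperone of antibody-secreting cells, had 1.98 ± 0.73 in arm G. The gene that was lower was Xbp1, a factor of plasma cells that hepatocytes also express, at -1.28 ± 0.38 in arm G and -1.15 ± 0.37 in the model minus normal. In model minus normal 10 of the 17 were positive (median 0.16), against 52.6% of all genes. At an unadjusted p under 0.05, 0 were higher and 1 (Xbp1) was lower, as were 235 of all 12355 genes. Xbp1 and Sdc1 lay wholly below the normal group in the model, which held for 5.29% of all genes.

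Downstream of the antigen receptors, 20 of 23 listed signalling genes were tested. Positive in model, arm D and arm G minus normal were 12, 15 and 14 (medians 0.07, 0.43 and 0.73). The shares of all tested genes were 52.6%, 48.2% and 51.2%. Of 22 homing receptors and chemokines, 21 were tested, and 12, 20 and 18 were positive in the same contrasts (medians 0.32, 1.10 and 0.71), against the same shares. In arm D minus normal 7 of the 21 were higher at an unadjusted p under 0.05, against 4.22% of all genes, among them the chemokines Cxcl10 at 1.80 ± 0.51 and Cxcl9 at 1.503 ± 0.45 and their receptor Cxcr3 at 1.86 ± 0.57. In model minus normal 2 were higher, against 3.01% of all genes, Itgb7 at 1.17 ± 0.45 and Cxcl9 at 1.03 ± 0.45. None of the genes of these lists passed an adjusted p of 0.05 with edgeR, the lowest being 0.342.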

How the data were processed

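The authors deposited 3 tables of 6 libraries each, whose raw counts (whole numbers, named as read counts per the file headers) were used. The log2 fold changes and p-values that the authors deposited beside them appear only in sentences naming their tables. Liver RNA was extracted with Trizol and sequenced from NEBNext Ultra libraries, per the labels. DESeq2 and mm9, which is a mouse build, are named by the submitters' processing notes. Aligner, counting tool, annotation and strand use were not given in the sources used here, so no coordinates of the files are printed. Another 36 per-sample columns were not used.

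Tables were joined on gene name, with N and M taken as normal and model and letters matched to groups, not to single samples. No 2 libraries agreed within sampling noise (chi-square per degree of freedom 22.4 to 893). Genes were kept by filterByExpr, scaled by TMM and fitted with edgeR 4.0.16 (R 4.3.3) in 1 quasi-likelihood model of 12 libraries with a mean per group (8 residual degrees of freedom), with Benjamini-Hochberg adjustment over 12355 genes. The SE is the log2 fold change divided by the root of F. The script was tested on simulated counts. Alternatives were DESeq2 1.42.0, limma 3.58.1 (voom with quality weights), RLE factors, other filters, removal of 13 mitochondrial genes, fits of 2 groups, and libraries left out.

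The genes and marker lists were chosen with earlier results of these data known. Named were, per role, the 2 genes with most counts and, per comparison, the 8 of smallest p. Other genes named from the marker lists were picked after their values were seen. Promoter windows came from RefSeq (GRCr8), matched by symbol.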

Additional observations from a re-analysis of the deposited data

How the results depend on the processing

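No gene passed the adjusted threshold in any of the 6 comparisons with edgeR. DESeq2 called 41 genes in model against normal, 14 and 5 in arms D and G against model, 84 and 51 in arms D and G against normal and 5 between the arms. Voom with quality weights called 6 in model, 941 in arm D and 47 in arm G against normal. Without a filter on low counts 3 were called in model against normal and 1 between the arms, and in a fit of 2 groups 2 in arm D against normal. Without M.6 and G.3 together 1 was called in model against normal. Leaving out each library in turn gave 0 to 6 in model against normal (6 without G.3), 0 to 1 in arm G against normal, 0 to 1 between the arms and 0 in the others. The cause was not tested.

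The median log2 fold change of the B and plasma genes was 1.53 in the model and 1.65 in arm D minus normal with voom, and 0.64 in arm G minus normal without M.6 and G.3. Leaving out each library in turn, the T and NK median ranged from 0.33 to 1.14 in model minus normal (1.14 without N.3), 0.89 to 1.81 in arm G minus normal (1.81 without N.3) and 0.37 to 1.12 in arm D minus model (1.12 without M.5). The B and plasma median ranged from 0.74 to 1.35 in arm D minus normal, 0.64 to 1.63 in arm G minus normal (0.64 without G.3), -0.078 to 0.90 in arm D minus model (-0.078 without M2.1, 0.90 without M.5) and 0.14 to 1.003 in arm G minus model. The difference of Lat between the arms reversed to -0.11 with voom. Ighm ranged from 1.99 to 2.71 in arm D, 2.098 to 2.82 in arm G and 1.36 to 2.34 in model minus normal. No paired analysis was possible because the count columns do not carry the replicate numbers of the labels. The low counts of the T cell receptor genes (14 to 98 for 3 CD3 genes per library) limit their precision.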
